A study of Mus musculus with 121 samples.

Results

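Oligodendrocyte precursors and the differentiating oligodendrocytes that arise from them were followed through 10 genes that mark these stages, namely Pdgfra, Cspg4, Vcan, Sox6, C1ql1, Gpr17, Enpp6, Bmp4, Neu4 and Lims2. The genes were chosen as known markers, with earlier results of these data known. Each is the entry of the deposited count table whose symbol equals its name, which found all 10 among 24412 genes. Their Entrez identifiers, in the same order, are 18595, 121021, 13003, 20679, 23829, 574402, 320981, 12159, 241159 and 225341. RNA was sequenced from the prefrontal cortex (PFC), striatum (STR) and substantia nigra (SN) of male mice in a study of raised endogenous GDNF, a neurotrophic factor for dopamine neurons. All mice were of a mixed 129Ola/ICR/C57bl6 background and were wt/wt (WT), wt/cKU (HET) or cKU/cKU (HOM) for GDNF cKU, an allele made to yield more Gdnf once Cre recombinase has acted on it, and WT littermates served as controls. In the first model, called Nestin-Cre here, mice with Nestin-Cre and GDNF cKU were taken at an age of 2 months by their labels. In the second, called AAV-Cre, GDNF cKU mice were injected with AAV-Cre into the striatum of both sides at 3 to 5 months and taken at 5 to 7 months. Nestin-Cre, which the WT mice of its model carry too, acts in neural precursors from before birth, so that neurons and most glia are targeted. The adult injection, which WT mice of that model also received, reaches the cells that the virus enters around the injected striatum, and the labels do not name the promoter of its Cre. Age, Cre source, surgery and any difference between sequencing runs cannot be told apart wherever the models are compared.

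Oligodendrocyte precursors are spread through the grey and white matter of the adult brain, keep the ability to divide, and depend on platelet-derived growth factor acting through the receptor that Pdgfra encodes. A share of them stops dividing and passes through a short committed stage, marked by Gpr17, Bmp4, Neu4 and Enpp6, before it either dies or matures into a myelinating oligodendrocyte. Most of these genes are also expressed elsewhere: Pdgfra and Bmp4 in fibroblast-like cells of the meninges and large vessels, Cspg4 in pericytes, and Sox6 and C1ql1 in some neurons. In RNA from whole tissue, fewer cells of a type and less RNA per cell cannot be told apart.

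There were 56 libraries from 21 Nestin-Cre and 65 libraries from 22 AAV-Cre mice, in 18 groups. In Nestin-Cre mice the WT, HET and HOM groups had 8, 6 and 4 libraries in PFC, and 6, 7 and 6 in both STR and SN. In AAV-Cre mice they had 7, 7 and 8 in PFC, 7 each in STR, and 7, 7 and 8 in SN. Total counts ran from 9869584 to 26750905 per library, with a median of 17885830. Levels are given as counts-per-million (cpm) after scaling by the trimmed mean of M values. Single libraries are named by model (N or A), region, genotype and mouse, as in N_PFC_WT_4575. The mouse of that library carries another genotype in its STR and SN labels, namely HOM, and every library was kept under its own label.

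Markers of neurons that belong to each region were summed per library. The 5 striatal neuron markers summed to a median of 7996 cpm in Nestin-Cre WT STR, against 497 in PFC and 114 in SN, and 6865, 699 and 159 cpm were those of AAV-Cre WT mice. Among all SN libraries of either model this sum reached 1186 cpm in N_SN_HET_4566 and 663 cpm in A_SN_WT_3587, against 96.5 to 238 cpm in the others. The 5 cortical excitatory neuron markers summed to a median of 2125 cpm in PFC of the same mice, against 87.0 in STR and 12.9 in SN, and of 1792, 24.5 and 23.7 cpm in AAV-Cre WT mice. Outside PFC they reached 525, 320 and 303 cpm in N_STR_HOM_4569, N_STR_WT_4326 and N_STR_WT_4609, and 317 cpm in A_SN_HOM_3611. The 5 midbrain dopamine neuron markers summed to at least 1906 cpm in every Nestin-Cre and at least 1515 cpm in every AAV-Cre WT library of SN, and to at most 42.4 cpm in any WT library of PFC or STR. Some libraries stood apart in tissue that borders the dissections. Choroid plexus markers, led by Ttr, reached 8016 and 5599 cpm in A_STR_WT_3585 and A_STR_WT_3588, against a group median of 210. They also reached 6776 and 5063 cpm in A_STR_HET_3610 and A_STR_HET_3750, 6423 and 4855 cpm in A_STR_HOM_3690 and A_STR_HOM_3607, 1259 and 19747 cpm in A_PFC_HET_3676 and A_SN_HET_3676, and 18710 cpm in N_STR_HET_4566. Vascular leptomeningeal markers, led by Dcn, reached 545 and 388 cpm in N_SN_WT_4329 and N_SN_WT_4394, against 85.9 to 138 in the other 4.

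Gdnf itself was measurable mainly in STR. Its mean level there was 5.98 ± 1.27 (SD), 6.25 ± 1.83 and 7.26 ± 1.47 cpm in Nestin-Cre WT, HET and HOM mice, and 6.65 ± 0.73, 7.63 ± 1.06 and 8.76 ± 0.89 cpm in the corresponding AAV-Cre groups. In AAV-Cre STR, the WT libraries ran from 5.49 over a median of 6.82 to 7.51 cpm and the HOM libraries from 7.71 over 8.66 to 10.1 cpm, so that all HOM lay above all WT libraries. That difference had a log2 fold change of 0.40 and an edgeR p of 0.000344, but an adjusted p of 0.504. HET exceeded WT by 0.20 (adjusted p 1.00), with 5 of 7 HET libraries above the WT mean. In Nestin-Cre STR the log2 fold changes were 0.07 for HET (adjusted p 0.850) and 0.28 for HOM (adjusted p 0.784, 5 of 6 libraries above the WT mean). By qPCR, the paper of this study reports raised striatal Gdnf mRNA in both models. It describes a short untranslated end in the mRNA of the recombined allele, while the counts here span 4867 annotated exon bases of Gdnf. What this did to the Gdnf counts was not tested. In PFC the WT, HET and HOM means were 0.4933, 0.429 and 0.255 cpm for Nestin-Cre and 0.849, 1.07 and 0.892 cpm for AAV-Cre mice. Means in SN, in the same order, were 0.404, 0.614 and 0.639 cpm and then 0.318, 0.457 and 0.471 cpm. The 2 SN libraries with most striatal neuron markers, N_SN_HET_4566 and A_SN_WT_3587, held the most Gdnf of their groups, 1.57 and 1.01 cpm.

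Levels of the 10 genes were compared with each other per kb of annotated exon. Where a sum of other markers is given, the gene named with it is the one with the most counts, whatever its length. In Nestin-Cre WT PFC, Gpr17, an orphan receptor of committed precursors, was highest at 16.5 ± 2.07 (SD) cpm per kb. Pdgfra (8.82 ± 0.60), Lims2 (8.75 ± 1.21) and C1ql1 (6.69 ± 1.82) came next, with ranges of 1 SD that overlapped. Sox6 (3.28), Cspg4 (3.23), Enpp6 (2.82), Neu4 (2.74) and Vcan (2.53) followed without gaps beyond their spread, and Bmp4 was lowest at 1.92 ± 0.18 cpm per kb. The order in Nestin-Cre WT SN was different, with Gpr17 (18.6 ± 4.12), Enpp6 (18.2 ± 5.19), Lims2 (17.3 ± 3.12) and C1ql1 (17.0 ± 2.27) overlapping at the top, Pdgfra at 10.8 ± 0.38, and the other 5 genes between 2.64 (Cspg4) and 4.83 (Neu4) cpm per kb. In AAV-Cre WT SN, C1ql1 stood alone at 29.2 ± 7.32 cpm per kb, above Gpr17 (12.2 ± 1.75), Pdgfra (11.5 ± 0.74), Lims2 (10.7 ± 1.36) and Enpp6 (8.07 ± 1.15). Exons of Gpr17 and Lims2, which lie on opposite strands of chromosome 18, share 188 bases. The libraries are stranded, but the strand setting of the counting is not stated.

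**Figure D1:**
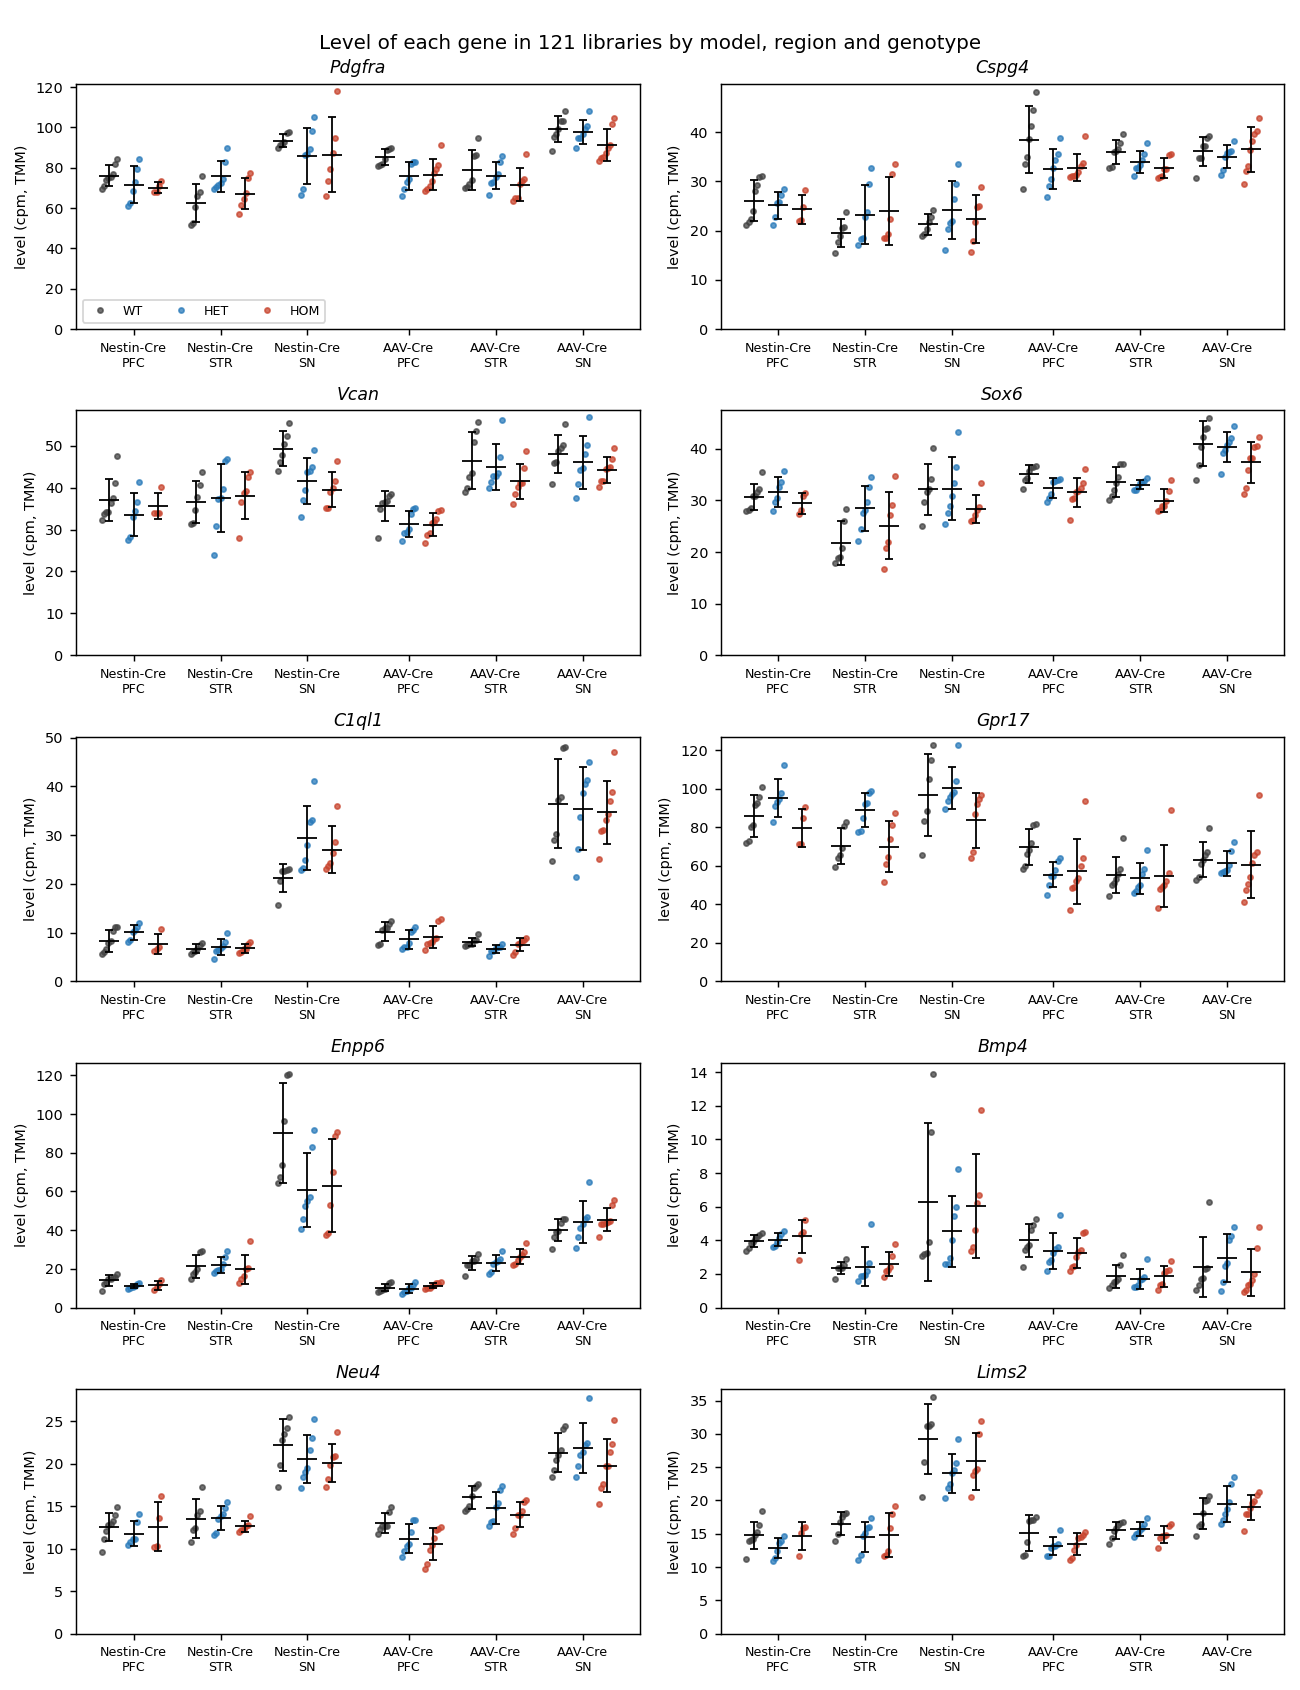
Level of each gene in cpm (linear axis from 0) in all libraries, by model, region and genotype; points are libraries, horizontal bars are means and whiskers are 1 SD. Enpp6 and C1ql1 stand highest in SN of both models, and Cspg4 is higher and Gpr17 lower in AAV-Cre than in Nestin-Cre mice in each region. HOM and WT libraries of a model and region overlap for every gene except C1ql1 in Nestin-Cre SN, where they meet.

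The first comparison asked how the 10 genes are distributed over the regions of WT mice. Genes were called at an adjusted p under 0.1 in edgeR, over all genes of the fit. In Nestin-Cre mice, SN minus STR gave 9 of 10 genes called higher and 0 lower, where 37.8% of all genes tested were called higher and 38.3% lower. SN minus PFC gave 7 higher and 1 lower (37.6% and 41.2% of all genes), and STR minus PFC 1 higher and 6 lower (34.2% and 34.0%). In AAV-Cre mice, SN minus STR gave 7 higher and 0 lower (39.7% and 35.9%), SN minus PFC 7 higher and 1 lower (37.7% and 36.4%), and STR minus PFC 3 higher and 3 lower (33.8% and 31.8%). The median log2 fold change of the 10 genes was 0.64 (Nestin-Cre) and 0.34 (AAV-Cre) for SN minus STR, against 0.01 and 0.03 over all genes. For SN minus PFC it was 0.52 and 0.27, against -0.03 and 0.01, and for STR minus PFC -0.30 and -0.08, against 0.00 and 0.02. Most genes tested thus differed between regions, in both directions.

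Among the surface proteins of precursors, Pdgfra ran from 51.5 over a median of 63.2 to 75.9 cpm in Nestin-Cre WT STR, from 69.3 over 75.4 to 84.5 cpm in PFC and from 89.9 over 92.1 to 97.7 cpm in SN. Every SN library lay above every library of STR and PFC, while STR and PFC overlapped. The log2 fold change was 0.58 ± 0.08 (SE) for SN minus STR, 0.28 ± 0.07 for SN minus PFC and -0.29 ± 0.08 for STR minus PFC, with adjusted p of at most 0.00196. In AAV-Cre WT mice Pdgfra was again highest in SN (88.5 to 108 cpm, median 99.5), with 0.36 over STR (adjusted p 1.86e-05) and 0.25 over PFC (adjusted p 0.00108), although the ranges overlapped. There the difference of STR from PFC was -0.11 (adjusted p 0.133), with 3 of 7 STR libraries above the PFC mean.

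Cspg4 encodes the NG2 proteoglycan of precursors and pericytes, and its order over regions was another. Nestin-Cre WT libraries ran from 21.1 over a median of 26.0 to 31.0 cpm in PFC, from 15.5 over 19.7 to 23.9 cpm in STR and from 18.9 over 21.0 to 24.3 cpm in SN. It was thus highest in PFC, with a log2 fold change of -0.42 for STR minus PFC (adjusted p 0.00206) and -0.31 for SN minus PFC (adjusted p 0.0158), and with all 6 libraries of STR and of SN below the PFC mean. In AAV-Cre WT mice the medians were 38.6, 36.1 and 37.1 cpm in PFC, STR and SN, and none of the 3 differences was called (adjusted p 0.339 to 0.698).

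Vcan encodes versican, a matrix proteoglycan secreted by precursors and by other cells. Its Nestin-Cre WT libraries ran from 44.0 over a median of 49.1 to 55.5 cpm in SN and from 31.3 over 36.2 to 43.7 cpm in STR, with no overlap. SN exceeded STR by 0.43 and PFC by 0.40 (adjusted p 0.000501 and 0.000454), and STR and PFC differed by -0.03 (adjusted p 0.795). In AAV-Cre mice it was PFC that stood apart, at 28.0 to 38.4 cpm (median 36.6), below every library of STR (38.9 to 55.6, median 43.6) and of SN (40.8 to 55.3, median 48.8). The log2 fold change was 0.38 for STR minus PFC and 0.47 for SN minus PFC, and 0.08 for SN minus STR (adjusted p 0.375).

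Sox6, a transcription factor that keeps precursors from maturing and is also made by some interneurons and dopamine neurons, was lowest in STR of Nestin-Cre WT mice. There it ran from 17.9 over a median of 19.9 to 28.3 cpm, against 27.9 over 30.9 to 35.6 cpm in PFC and 25.0 over 31.9 to 40.2 cpm in SN. All 6 STR libraries lay below the PFC mean (log2 fold change -0.50, adjusted p 0.000419), and SN exceeded STR by 0.56 (adjusted p 0.000214). In AAV-Cre WT mice SN was highest, at 34.0 over a median of 42.3 to 46.0 cpm, by 0.32 over STR and 0.26 over PFC (adjusted p 0.000107 and 0.00129), and STR and PFC differed by -0.07 (adjusted p 0.382).

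C1ql1, a secreted protein of the complement C1q family that precursors and some neurons make, separated SN from the other regions without overlap in both models. Nestin-Cre WT libraries ran from 15.8 over a median of 22.6 to 23.1 cpm in SN, from 5.53 over 8.04 to 11.2 cpm in PFC and from 5.69 over 6.46 to 7.94 cpm in STR. The AAV-Cre WT libraries of SN ran from 24.7 over 37.2 to 48.0 cpm, while the highest of PFC and STR were 12.4 and 9.78 cpm. For SN minus STR the log2 fold change was 1.67 ± 0.16 (SE) and 2.205 ± 0.15 in the 2 models, and that of SN minus PFC 1.34 ± 0.15 and 1.86 ± 0.14. STR lay below PFC by a log2 fold change of -0.33 and -0.34 (adjusted p 0.0678 and 0.0571), with all 6 and all 7 STR libraries below the PFC mean. With mouse as a block, the Nestin-Cre value was -0.21 (adjusted p 0.316).

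Gpr17 was lowest in STR in both models. In Nestin-Cre WT mice it ran from 59.3 over a median of 67.5 to 82.6 cpm in STR, 72.0 over 86.5 to 101 cpm in PFC and 65.6 over 96.7 to 123 cpm in SN. STR minus PFC was -0.30 (adjusted p 0.0349) and SN minus STR 0.46 (adjusted p 0.00312), with overlap in both cases. The AAV-Cre WT medians were 53.3, 68.1 and 62.8 cpm in STR, PFC and SN, and STR again lay lowest, with -0.34 for STR minus PFC (adjusted p 0.00868) and 0.23 for SN minus STR (adjusted p 0.0542). The last of these was 0.12 (adjusted p 0.347) without A_STR_WT_3585 and A_STR_WT_3588, and 0.20 (adjusted p 0.224) with all 9 groups of the model in the fit. SN and PFC were not called apart in either model (adjusted p 0.238 and 0.377).

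Enpp6, an enzyme of newly forming oligodendrocytes that cleaves choline phosphodiesters, was called in all 6 comparisons, each time increasing from PFC to STR to SN. Nestin-Cre WT libraries ran from 8.76 over a median of 14.7 to 17.1 cpm in PFC, from 14.9 over 19.1 to 29.0 cpm in STR and from 64.5 over 84.8 to 120.8 cpm in SN. AAV-Cre WT libraries ran from 7.93 over 9.77 to 12.97 cpm in PFC, from 16.3 over 23.8 to 27.4 cpm in STR and from 30.2 over 39.3 to 46.0 cpm in SN. In AAV-Cre mice the 3 regions did not overlap at all, and in Nestin-Cre mice only PFC and STR did. Its log2 fold change was 2.07 ± 0.19 (SE) and 0.84 ± 0.12 for SN minus STR in the 2 models, 2.66 ± 0.18 and 1.99 ± 0.12 for SN minus PFC, and 0.59 ± 0.18 and 1.15 ± 0.12 for STR minus PFC.

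Bmp4, a secreted signal that committed precursors make, had calls that depended on single libraries. Nestin-Cre WT libraries ran from 1.71 over a median of 2.36 to 2.88 cpm in STR and from 3.37 over 3.98 to 4.45 cpm in PFC, with no overlap (log2 fold change -0.76, adjusted p 0.0355). With mouse as a block it was -0.55 and no longer called. In SN they ran from 3.06 over 3.55 to 13.9 cpm. The 2 highest SN libraries, at 13.9 and 10.4 cpm, were N_SN_WT_4329 and N_SN_WT_4394, in which the 6 vascular leptomeningeal markers also summed highest, whereas the other 4 libraries held 3.06 to 3.87 cpm. SN minus PFC was 0.65 (adjusted p 0.0460), with 2 of 6 SN libraries above the PFC mean. It was 0.24 (adjusted p 0.370) without N_SN_WT_4329, 0.52 (adjusted p 0.109) without N_SN_WT_4394, -0.27 (adjusted p 0.0841) without both and 0.49 (adjusted p 0.114) with mouse as a block. SN minus STR was 1.42 (adjusted p 0.000505), with all 6 SN libraries above all STR libraries, and 0.49 (adjusted p 0.00597) without the same 2 libraries. In AAV-Cre WT mice the medians were 3.72, 1.55 and 1.75 cpm in PFC, STR and SN, so that both STR (-1.12, adjusted p 0.00473) and SN (-0.69, adjusted p 0.0546) lay below PFC, the latter by -1.15 (adjusted p 0.000188) without A_SN_WT_3578. In that SN group, A_SN_WT_3578 held 6.29 cpm of Bmp4 and the highest vascular leptomeningeal sum of the group, 180 cpm against a median of 73.9. Among AAV-Cre WT libraries of STR, A_STR_WT_3585 and A_STR_WT_3588 held the most Bmp4, 3.13 and 2.51 cpm. They also had the highest choroid plexus sums, 8016 and 5599 cpm. The part of leptomeningeal and choroid plexus cells in the Bmp4 values was not tested.

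Neu4, a sialidase of the late precursor and committed stages, and Lims2, an adaptor protein of cell contacts, had similar orders. Neu4 in Nestin-Cre WT mice ran from 17.2 over a median of 23.2 to 25.5 cpm in SN, 10.7 over 13.2 to 17.3 cpm in STR and 9.65 over 12.8 to 14.9 cpm in PFC. Neu4 was called higher in SN than in STR (0.71 and 0.44) and PFC (0.81 and 0.74) in both models, and higher in STR than in PFC in AAV-Cre mice alone (0.30, adjusted p 0.00142, against 0.10 and 0.477 in Nestin-Cre mice). Lims2 in Nestin-Cre WT mice ran from 20.5 over 31.1 to 35.5 cpm in SN, above every library of STR (13.9 to 18.1) and PFC (11.3 to 18.4). Its SN excess there was 0.82 over STR and 0.97 over PFC. For AAV-Cre mice the corresponding values were 0.25 and 0.29 (adjusted p 0.0322 and 0.0160), and the ranges overlapped.

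**Figure D2:**
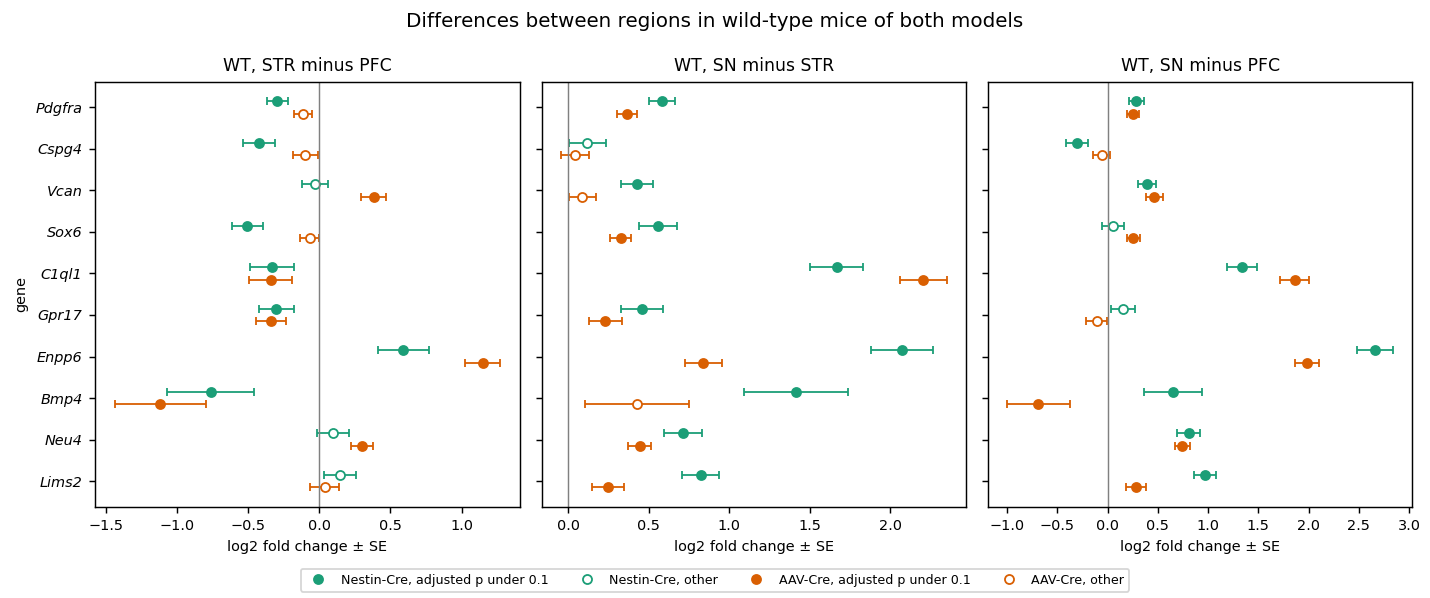
Log2 fold change (points) with its standard error (whiskers) of each gene between regions in WT mice of the Nestin-Cre and AAV-Cre models; filled points had an adjusted p under 0.1 in edgeR. All 10 genes lie above 0 in both models for SN minus STR, and Enpp6 and C1ql1 lie farthest from 0 there.

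Other genes of the lineage and of other cells were counted in the same region comparisons. Of 12 other precursor genes, including Olig1, Olig2, Sox10 and Ptprz1, 9 were called higher and 1 lower in SN minus STR of Nestin-Cre WT mice and 10 and 1 in AAV-Cre WT mice, with medians of 0.73 and 0.57. Of 20 myelin and mature oligodendrocyte genes, 20 and 19 were called higher and 0 lower, with medians of 1.53 and 0.74. In SN minus PFC, 20 of 20 were called higher in both models, with medians of 2.36 and 1.82, and their sum went from a mean of 6270 ± 999 (SD) cpm in PFC over 10008 ± 2617 in STR to 30953 ± 7108 in SN of Nestin-Cre WT mice. Enpp6 followed this order. The differentiating list held genes of either direction. Casr had log2 fold changes for SN minus STR of 2.59 (Nestin-Cre) and 5.17 (AAV-Cre), from low mean WT STR levels of 0.782 and 0.287 cpm. Mean Fyn was lower in SN, at 115 against 125 cpm for Nestin-Cre WT and 102 against 114 cpm for AAV-Cre WT libraries. Cacng4 of the precursor list was also lower in SN than in STR, with log2 fold changes of -2.09 and -1.48. The 6 vascular leptomeningeal markers were all called higher in SN than in STR (medians 3.18 and 1.75) and all lower in STR than in PFC (medians -1.49 and -1.41). Of 6 neuroblast and cycling cell markers, 5 were called lower in SN than in STR in each model (medians -1.32 and -1.92). The part of these cells in the values of the 10 genes was not tested.

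Among the other PDGF genes, all 5 lay lower in STR than in PFC in both models, with 5 and 4 called. Pdgfa, a ligand of the receptor that Pdgfra encodes, was higher in SN than in STR, by 0.69 in Nestin-Cre and 0.43 in AAV-Cre WT mice. Pdgfd was higher there by 3.30 and 1.65, and Pdgfb, a ligand made largely by endothelial cells, was lower by -0.52 and -0.40. Of 16 BMP ligands, receptors, antagonists and targets, 7 were called higher and 3 lower in SN minus STR in each model, beside 37.8% higher and 38.3% lower of all genes for Nestin-Cre, and 39.7% and 35.9% for AAV-Cre mice. Id4, a target of BMP signalling, was lower in SN than in STR (-2.15 and -1.93) and higher in STR than in PFC (2.46 and 1.96). Chrd, which encodes the BMP antagonist chordin, was lower in STR than in PFC (-2.40 and -2.29).

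The second comparison set WT mice of the 2 models side by side in each region. In STR, 6 of 10 genes were called higher and 1 lower in AAV-Cre than in Nestin-Cre mice, where 31.0% of all genes were called higher and 29.6% lower. In PFC, 3 were called higher and 2 lower (23.9% and 24.2% of all genes), and in SN 3 higher and 4 lower (29.3% and 31.2%). The medians of the 10 genes were 0.28, 0.04 and -0.09 in STR, PFC and SN, against 0.02, 0.01 and -0.01 over all genes. The comparison was repeated in HET and HOM mice, which, apart from the mouse of N_PFC_WT_4575, are animals other than the WT mice. In PFC, 2 genes were called in each (20.4% of all genes in HET and 12.3% in HOM), in STR 4 in each (46.8% and 37.0%), and in SN 5 in HET and 7 in HOM (39.9% and 51.0%). Over the 9 comparisons 43 of 90 tests were called, and the genes divided into those that kept one direction and those that did not.

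Cspg4 was called higher in AAV-Cre mice in 9 of 9 comparisons. In WT STR it ran from 15.5 over a median of 19.7 to 23.9 cpm in Nestin-Cre and from 32.7 over 36.1 to 39.6 cpm in AAV-Cre mice, and in WT SN from 18.9 over 21.0 to 24.3 and from 30.7 over 37.1 to 39.2 cpm. In neither region did the models overlap, whereas in PFC they did (21.1 to 31.0 against 28.4 to 48.1 cpm). WT mice had a log2 fold change of 0.57 ± 0.10 (SE) in PFC, 0.89 ± 0.13 in STR and 0.72 ± 0.12 in SN, with adjusted p of at most 1.68e-05, and in HET and HOM mice it lay between 0.37 and 0.67. Pericyte markers, which cells expressing Cspg4 outside the lineage would also carry, were called higher for 4 of 7 in PFC and 3 of 7 in STR, and for 1 of 7, with 3 lower, in SN. Of all genes 23.9%, 31.0% and 29.3% were called higher in PFC, STR and SN, and 31.2% lower in SN. Their summed mean, with most counts from Rgs5 and Vtn, was 203 cpm in Nestin-Cre and 241 in AAV-Cre WT STR, and 348 and 260 cpm in WT SN. Their part in the Cspg4 difference was not tested.

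Gpr17 was called lower in AAV-Cre mice in 9 of 9 comparisons. In WT SN it ran from 65.6 over a median of 96.7 to 123 cpm in Nestin-Cre and from 52.5 over 62.8 to 79.8 cpm in AAV-Cre mice, with all 7 AAV-Cre libraries below the Nestin-Cre mean. In WT mice the log2 fold change was -0.30 in PFC (adjusted p 0.0353), -0.33 in STR (adjusted p 0.0385) and -0.65 in SN (adjusted p 0.000209). Without A_STR_WT_3585 and A_STR_WT_3588 the STR value was -0.26 (adjusted p 0.141). In HET mice the values were -0.78, -0.73 and -0.72 in PFC, STR and SN, and their groups did not overlap in any of the 3 regions. Whether HET or HOM mice differed from WT mice in this was tested, and the quasi-likelihood test of edgeR called none of the 6 differences of Gpr17 (adjusted p 0.192 to 0.978). The likelihood ratio test, which called many more of all genes in the genotype comparisons below, called those of HET in PFC and STR (adjusted p 0.00224 and 0.0902). In HOM mice the values were -0.48, -0.35 and -0.50, and the mouse of A_PFC_HOM_3570 gave the 1 AAV-Cre library above the Nestin-Cre mean in each region.

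Sox6 lay higher in AAV-Cre mice in 9 of 9 comparisons and was called in 6. In WT STR, Nestin-Cre libraries ran from 17.9 over a median of 19.9 to 28.3 cpm and AAV-Cre libraries from 30.1 over 33.4 to 37.2 cpm, without overlap (log2 fold change 0.64, adjusted p 4.01e-05). The WT difference was 0.20 in PFC and 0.31 in SN (adjusted p 0.00659 and 0.00939). Without N_SN_WT_4329 and N_SN_WT_4394 the SN value was 0.20 (adjusted p 0.115). In STR it was 0.23 in HET mice, not called with all libraries and called without the mouse of N_STR_HOM_4575 (adjusted p 0.0976), and 0.26 in HOM mice (adjusted p 0.0921). The latter was no longer called without A_STR_WT_3585 and A_STR_WT_3588 (adjusted p 0.101), without a filter (adjusted p 0.124) or by the likelihood ratio test (adjusted p 0.111). Pdgfra also lay higher in 9 of 9 comparisons, but was called in 2, those of WT PFC (0.17, adjusted p 0.0319) and WT STR (0.36, adjusted p 0.00143). Vcan and Neu4 were called higher in WT STR (0.36 and 0.27, adjusted p 0.0112 and 0.0144), with all 7 AAV-Cre libraries above the Nestin-Cre mean for both, and not in WT PFC or SN. The likelihood ratio test did not call that of Neu4 (adjusted p 0.148). Vcan was also called higher in HET STR, at a mean of 44.9 cpm in AAV-Cre and 37.5 cpm in Nestin-Cre mice. There too all 7 AAV-Cre libraries lay above the Nestin-Cre mean, and the ranges overlapped.

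C1ql1 was called higher in SN of AAV-Cre WT mice, where its 24.7 to 48.0 cpm lay above all of the Nestin-Cre libraries at 15.8 to 23.1 cpm. Its log2 fold change was 0.74 ± 0.16 (SE) in WT SN, 0.32 in HOM SN (adjusted p 0.0910) and 0.29 in WT STR (adjusted p 0.0555). The HOM SN value was 0.28 (adjusted p 0.185) without the mouse of N_SN_HOM_4575, 0.31 (adjusted p 0.101) without N_SN_WT_4329 and 0.34 (adjusted p 0.102) without a filter. The WT STR value was 0.25 (adjusted p 0.145) without A_STR_WT_3585 and A_STR_WT_3588, and 0.12 (adjusted p 0.156) as the average over the 3 genotypes, and the likelihood ratio test of edgeR gave it an adjusted p of 0.242.

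Enpp6, Lims2 and Bmp4 were called lower in SN of AAV-Cre than of Nestin-Cre WT mice. Enpp6 in WT SN ran from 64.5 over a median of 84.8 to 120.8 cpm in Nestin-Cre and from 30.2 over 39.3 to 46.0 cpm in AAV-Cre mice, with no overlap and a log2 fold change of -1.22 ± 0.20 (SE, adjusted p 9.18e-06). In HET and HOM SN it was -0.48 and -0.51 (adjusted p 0.0596 and 0.0326), and in WT PFC -0.44 (adjusted p 0.00526), while in WT STR it was 0.12 (adjusted p 0.570). In HOM STR it was 0.43 (adjusted p 0.0616), and 0.38 (adjusted p 0.108) without the mouse of N_STR_HOM_4575. Lims2 in WT SN ran from 20.5 over 31.1 to 35.5 cpm and from 14.7 over 18.1 to 20.7 cpm, a difference of -0.74 (adjusted p 3.20e-06), with -0.32 in HET and -0.49 in HOM mice. Bmp4 in WT SN differed by -1.41 ± 0.44 (SE, adjusted p 0.00730) with 1 of 7 AAV-Cre libraries, A_SN_WT_3578, above the Nestin-Cre mean. Without N_SN_WT_4329 and N_SN_WT_4394 that difference was -0.51 (adjusted p 0.363), and without A_SN_WT_3578 it was -1.86 (adjusted p 0.000689). It was -0.64 (adjusted p 0.246) in HET and -1.56 (adjusted p 0.00367) in HOM SN. In HOM SN too the vascular leptomeningeal markers lay lower in AAV-Cre mice, with 4 of 6 called and a mean sum of 107 against 231 cpm, and the library with the most Bmp4, N_SN_HOM_4393 (11.8 cpm), had the highest such sum of its group, 392 cpm. Their part in it was not tested. In HET STR Bmp4 differed by -0.52 (adjusted p 0.0933), and was not called without a filter (adjusted p 0.119) or by the likelihood ratio test (adjusted p 0.139). N_STR_HET_4566 held 4.98 cpm of Bmp4, against 1.58 to 2.63 cpm in the others of its group, and their highest choroid plexus sum, 18710 cpm. Among AAV-Cre HET STR libraries, A_STR_HET_3610 had the most Bmp4 (2.90 cpm) and the highest such sum (6776 cpm). The part of choroid plexus cells in this difference was not tested.

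Whether the difference between models itself differed between regions was tested in WT mice. Regions of 1 mouse are not independent, and with mouse as a block 12 of the 14 calls given here were kept. For SN against STR, 6 of 10 genes were called, where 34.0% of all genes were. Enpp6 (-1.28), Lims2 (-0.62), Vcan (-0.38), Neu4 (-0.31) and Pdgfra (-0.26) were more negative in SN, and C1ql1 (0.50) more positive. For SN against PFC, 4 of 10 were called (45.0% of all genes), namely Bmp4 (-1.37), Lims2 (-0.72), Enpp6 (-0.72) and C1ql1 (0.49). For STR against PFC, also 4 of 10 were called (29.4%), namely Enpp6 (0.56), Sox6 (0.44), Vcan (0.41) and Cspg4 (0.32), all more positive in STR. With mouse as a block the value of Neu4 for SN against STR was -0.29 (adjusted p 0.120) and that of C1ql1 for SN against PFC 0.38 (adjusted p 0.154). The likelihood ratio test did not call Neu4 and Pdgfra for SN against STR (adjusted p 0.258 and 0.162) or Cspg4 for STR against PFC (adjusted p 0.127). Without a filter Neu4 for SN against STR (adjusted p 0.139), and Enpp6 and Cspg4 for STR against PFC (adjusted p 0.108 and 0.156), were not called. Several calls moved when libraries were left out. Without N_SN_WT_4329 and N_SN_WT_4394 the Bmp4 value for SN against PFC was -0.46 (adjusted p 0.348). Bmp4 for SN against STR was -1.02 (adjusted p 0.104), and -1.48 (adjusted p 0.00797) without A_SN_WT_3578. Sox6 for SN against STR was -0.27 (adjusted p 0.119), and -0.34 (adjusted p 0.0460) without N_SN_WT_4394. Neu4 there was -0.30 (adjusted p 0.110) without A_SN_WT_3578 and -0.28 (adjusted p 0.172) without A_STR_WT_3585 and A_STR_WT_3588. Without the latter 2 libraries the STR against PFC values of Enpp6 and Cspg4 were 0.56 (adjusted p 0.106) and 0.30 (adjusted p 0.157), and without N_PFC_WT_4575 that of Cspg4 had an adjusted p of 0.148.

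**Figure D3:**
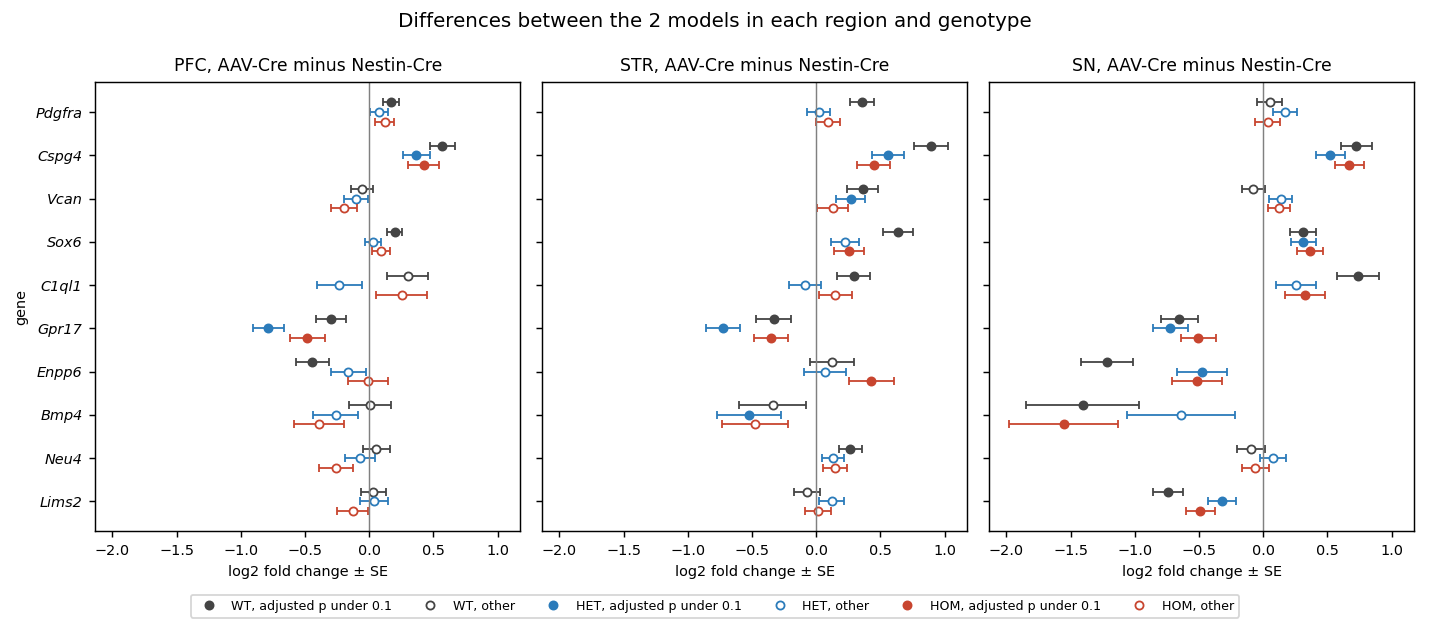
Log2 fold change (points) with its standard error (whiskers) of AAV-Cre minus Nestin-Cre mice in each region and genotype; filled points had an adjusted p under 0.1 in edgeR. Cspg4 lies above 0 and Gpr17 below 0 in all 9 comparisons, and in WT SN Bmp4, Enpp6 and Lims2 lie farthest below 0.

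Other genes of the lineage were compared between the models too. Of 12 other precursor genes, 5, 10 and 6 were called higher and 1, 0 and 1 lower in WT PFC, STR and SN of AAV-Cre mice, with medians of 0.19, 0.51 and 0.25. Of 20 myelin genes, 10 were called higher and 1 lower in STR, and 0 higher and 16 lower in SN, with medians of 0.30 and -0.83. The sum of the myelin genes, Mbp with the most counts, had a median of 32371 cpm in Nestin-Cre and 20423 cpm in AAV-Cre WT SN, and of 9706 and 12226 cpm in WT STR. The differentiating list was divided in every region (4 higher and 4 lower of 11 in PFC, 5 and 5 of 12 in STR, 4 and 6 of 12 in SN), and the transcript 9630013A20Rik, a mark of newly formed oligodendrocytes, was lower by -1.93, -2.74 and -3.59 in PFC, STR and SN. Opalin, of the myelin list, was lower by -1.77 in SN. The 6 vascular leptomeningeal markers were all called lower in SN (median -1.40) and the 4 choroid plexus markers all higher in STR (median 4.03), with a mean choroid sum of 2065 against 120.6 cpm. The choroid sum was 8016 and 5599 cpm in A_STR_WT_3585 and A_STR_WT_3588 but 82.0 to 272 cpm in the other 5 AAV-Cre libraries, and without those 2 none of the 4 markers was called. Likewise, without N_SN_WT_4329 and N_SN_WT_4394 none of the 6 vascular leptomeningeal markers was called in SN. Of 5 endothelial markers, 3, 4 and 3 were called higher and 0 lower in PFC, STR and SN (medians 0.41, 0.75 and 0.42). Their part in the differences of the 10 genes was not tested beyond leaving out the libraries named above.

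The third comparison, the one the study was designed for, set HET and HOM mice against WT mice of the same model and region. Over the 12 comparisons edgeR called 0 of 120 tests of the 10 genes, with an unadjusted p under 0.05 for 25. DESeq2 called 1, the likelihood ratio test of edgeR 6, and edgeR with the size factors of DESeq2, without a filter, or with only the 2 compared genotypes in the fit 0 each. Over all genes 8.3% of the 12 sets of tests had an unadjusted p under 0.05. The calls over all genes were 0% in 10 of the 12 comparisons, 0.250% in Nestin-Cre PFC HOM and 0.0137% in AAV-Cre PFC HOM, in edgeR. Over the 12 comparisons together edgeR called 38 of 175698 tests of all genes, DESeq2 1091 of 175696 and the likelihood ratio test 4145 of 175698. The number of the 10 genes with an unadjusted p under 0.05 was 1 and 0 in Nestin-Cre PFC, 3 and 0 in STR and 4 and 2 in SN for HET and HOM. The share of all genes at that p was 9.72% and 10.1%, 17.3% and 4.62%, and 8.99% and 4.09%, in the same order. It was 4 and 6 of the 10 genes in AAV-Cre PFC (12.3% and 14.2% of all genes), 1 and 3 in STR (1.71% and 4.58%) and 0 and 1 in SN (4.69% and 7.49%). These counts moved with single libraries. Nestin-Cre SN HOM had 5 without N_SN_WT_4394 (5.85% of all genes) and 6 without N_SN_WT_4329 and N_SN_WT_4394 (11.8%). Nestin-Cre PFC HET had 3 without N_PFC_WT_4329 (11.2%), and 2 without N_PFC_WT_4326 (8.42%), N_PFC_WT_4396 (9.57%) or N_PFC_HOM_4580 (10.5%). Nestin-Cre PFC HOM had 1 without N_PFC_WT_4575 (9.76%), N_PFC_WT_4609 (9.56%) or N_PFC_HOM_4393 (10.1%), and AAV-Cre SN HOM had 0 without the mouse of A_SN_HOM_3570 (7.62%).

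In AAV-Cre PFC, 10 of 10 genes lay below WT in HET and 9 of 10 in HOM mice, with medians of -0.21 and -0.19 against 0.00 over all genes. Pdgfra ran from 80.9 over a median of 84.4 to 89.6 cpm in WT, from 66.1 over 74.6 to 82.9 cpm in HET and from 68.5 over 75.3 to 91.5 cpm in HOM mice. All 7 HET and 7 of 8 HOM libraries were below the WT mean, and the ranges overlapped. Its log2 fold change was -0.17 in HET and -0.16 in HOM (edgeR p 0.0141 and 0.0150, adjusted p 0.340 and 0.266). Vcan ran from 28.0 over 36.6 to 38.4 cpm in WT and from 26.7 over 31.7 to 34.7 cpm in HOM mice, with all 7 HET (-0.19) and all 8 HOM libraries (-0.20) below the WT mean. Neu4 was at 11.7 to 14.9 cpm in WT (median 12.6) and 7.58 to 12.5 cpm in HOM mice (median 10.8), again with 8 of 8 below (-0.31, adjusted p 0.242). Sox6 lay at -0.12 in HET and -0.16 in HOM, and Cspg4 at -0.24 in both.

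Gpr17 ran from 58.4 over a median of 68.1 to 81.8 cpm in WT, from 44.8 over 54.8 to 63.9 cpm in HET and from 36.9 over 52.9 to 93.8 cpm in HOM PFC of the same model. The highest HOM library, A_PFC_HOM_3570, lay above all WT libraries, and the other 7 were below the WT mean. Gpr17 had a log2 fold change of -0.33 in HET (adjusted p 0.355) and -0.29 in HOM (adjusted p 0.317). Without that mouse the HOM value was -0.43, with an adjusted p of 0.0812, and Gpr17 was then the only gene of the 10 called, while the calls over all genes went from 2 of 14628 to 114 of 14616. The mouse was left out after its values had been seen. In this mouse Gpr17 was the highest of its group in STR and SN too, at 89.0 and 96.9 cpm against group medians of 50.0 and 57.9 cpm.

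Markers of other cell types moved in the same PFC comparison. All 6 astrocyte, 5 microglia and 5 endothelial markers lay below WT in both HET and HOM mice, as did 6 and 7 of 7 pericyte and 6 and 4 of 6 vascular leptomeningeal markers, and all 5 cortical excitatory neuron markers lay above, with medians of 0.13 and 0.21. Astrocyte markers, led by Slc1a2, summed to a median of 5298 cpm in WT (4897 to 5618), 4600 in HET (4379 to 5289) and 4639 in HOM (4231 to 5446). Microglia markers, led by Csf1r, had medians of 450, 385 and 382 cpm, and cortical neuron markers, led by Slc17a7, of 1792, 1932 and 2034 cpm. None of these genes was at 0 in any of the 3 groups, and none was called. The myelin genes had medians of -0.07 and -0.04, and the 12 other precursor genes of 0.00 and -0.02, with 6 and 8 below WT. The part of the other cell types in the lower values of the 10 genes was not tested.

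In Nestin-Cre PFC the 10 genes lay near WT, with medians of -0.06 in HET and -0.07 in HOM mice, while the myelin genes lay lower. Of the 20 myelin genes, 19 were below WT in HET (median -0.42) and 20 in HOM mice (median -0.41), and 2 were called lower in HOM, Gjb1 among them (-0.71, adjusted p 0.00677). Their sum ran from 4896 over a median of 6180 to 8286 cpm in WT and from 3543 over 4562 to 5859 cpm in the 4 HOM libraries. Enpp6 was the one gene of the 10 with an unadjusted p under 0.05 there. It ran from 8.76 over a median of 14.7 to 17.1 cpm in WT and from 9.61 over 10.8 to 12.5 cpm in HET, with 6 of 6 HET libraries below the WT mean, and was at 8.94, 10.6, 12.1 and 14.0 cpm in the 4 HOM libraries. The log2 fold change was -0.35 in HET (adjusted p 0.350) and -0.30 in HOM mice (adjusted p 0.503). The 5 striatal neuron markers were below WT in both (medians -0.72 and -0.63), and their part was not tested.

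In Nestin-Cre STR, 9 of 10 genes lay above WT in HET mice (median 0.08 against 0.01 over all genes) and 6 of 10 in HOM mice (median 0.05). Gpr17 ran from 59.3 over a median of 67.5 to 82.6 cpm in WT, from 77.6 over 91.9 to 98.7 cpm in HET and from 51.6 over 69.3 to 87.2 cpm in HOM mice. All 7 HET and 3 of 6 HOM libraries exceeded the WT mean. The HET difference was 0.34 (adjusted p 0.184), and the adjusted p of HOM was 0.996. Pdgfra (0.29, adjusted p 0.194) and Sox6 (0.39, adjusted p 0.231) were also above the WT mean in 7 of 7 HET libraries. The choroid plexus markers of that comparison had a median of 3.39, and their sum ran from 14.4 over 55.8 to 18710 cpm in HET mice against 33.7 over 83.9 to 283 cpm in WT, so that 1 library carried the difference. All 5 striatal and all 5 cortical excitatory neuron markers lay below WT (medians -0.43 and -1.55), and the cortical sum had a median of 23.0 cpm in HET against 87.0 cpm in WT mice. All 6 neuroblast and cycling cell markers (median 0.49) and all 6 vascular leptomeningeal markers (median 0.54) lay above WT, the latter with a mean sum of 37.4 ± 6.30 (SD) against 26.7 ± 5.53 cpm. None of these was called, and the part of these cells was not tested.

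In Nestin-Cre SN the genes diverged. C1ql1 ran from 15.8 over a median of 22.6 to 23.1 cpm in WT, from 22.7 over 28.1 to 41.0 cpm in HET and from 23.1 over 25.3 to 35.9 cpm in HOM mice. All 7 HET and all 6 HOM libraries were above the WT mean. The highest WT and the lowest HOM library lay next to each other, at 23.08 and 23.09 cpm. The log2 fold change was 0.46 in HET and 0.35 in HOM (edgeR p 0.00457 and 0.0289, adjusted p 0.518 and 0.892). Vcan went the other way, from 44.0 over 49.1 to 55.5 cpm in WT to 32.9 over 43.9 to 49.0 cpm in HET and 35.1 over 39.4 to 46.4 cpm in HOM, with every HET and HOM library below the WT mean (-0.26 and -0.31, adjusted p 0.518 and 0.892). Enpp6 had medians of 84.8, 55.0 and 61.5 cpm in WT, HET and HOM mice, with 6 of 7 HET and 5 of 6 HOM libraries below the WT mean (-0.58 and -0.51). Lims2 lay at -0.29 in HET mice with 7 of 7 below. The 20 myelin genes were all below WT in HET and 18 of 20 in HOM mice, with medians of -0.37 and -0.36.

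Part of the HET and HOM libraries of that region stood apart in markers of other cells. In N_SN_HET_4577, N_SN_HET_4606, N_SN_HET_4628, N_SN_HOM_4580 and N_SN_HOM_4627, the microglia markers summed to 303 to 324 cpm and the astrocyte markers, led by Slc1a2, to 3332 to 3524 cpm. In every other HET, HOM and WT library of Nestin-Cre SN the sums were at least 427 and at least 3979 cpm, and none of these genes was at 0 in any of the 3 groups. All 5 microglia and all 6 astrocyte markers lay below WT in both HET (medians -0.31 and -0.12) and HOM mice (medians -0.28 and -0.22). The same 5 libraries held the highest C1ql1, 28.7 to 41.0 cpm, and the lowest Enpp6, 37.5 to 52.3 cpm, of the HET and HOM libraries. They were left out after these values had been seen. Without them the log2 fold change of C1ql1 was 0.21 in HET and 0.21 in HOM mice, that of Vcan -0.17 and -0.23, and that of Enpp6 -0.34 and -0.24, with adjusted p of 0.926 or more for each. The number of the 10 genes with an unadjusted p under 0.05 was then 0 in HET and 1 in HOM mice (5.31% and 2.07% of all genes). Against AAV-Cre mice, the SN values of Enpp6 in HET and HOM mice were -0.72 and -0.79 without them (adjusted p 0.00150 and 0.000343), in place of -0.48 and -0.51. In HET mice that of Cspg4 was 0.79 in place of 0.52, and that of Sox6 0.19 (adjusted p 0.126, no longer called) in place of 0.31. The part of the other cells in these values was not tested.

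In AAV-Cre STR and SN the 10 genes had medians between -0.12 and -0.01. In STR of HOM mice, Sox6 (-0.17, 6 of 7 libraries below the WT mean, edgeR p 0.00382, adjusted p 0.973), Neu4 (-0.20, 7 of 7 below) and Cspg4 (-0.14, 7 of 7 below) had an unadjusted p under 0.05. In HET mice of that region C1ql1 did (-0.29, 7 of 7 below, adjusted p 1.00). It ran from 7.24 over a median of 7.65 to 9.78 cpm in WT and from 5.18 over 6.78 to 7.56 cpm in HET mice. In SN, Pdgfra in HOM mice was the only such gene (-0.12, 6 of 8 below, adjusted p 0.663).

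**Figure D4:**
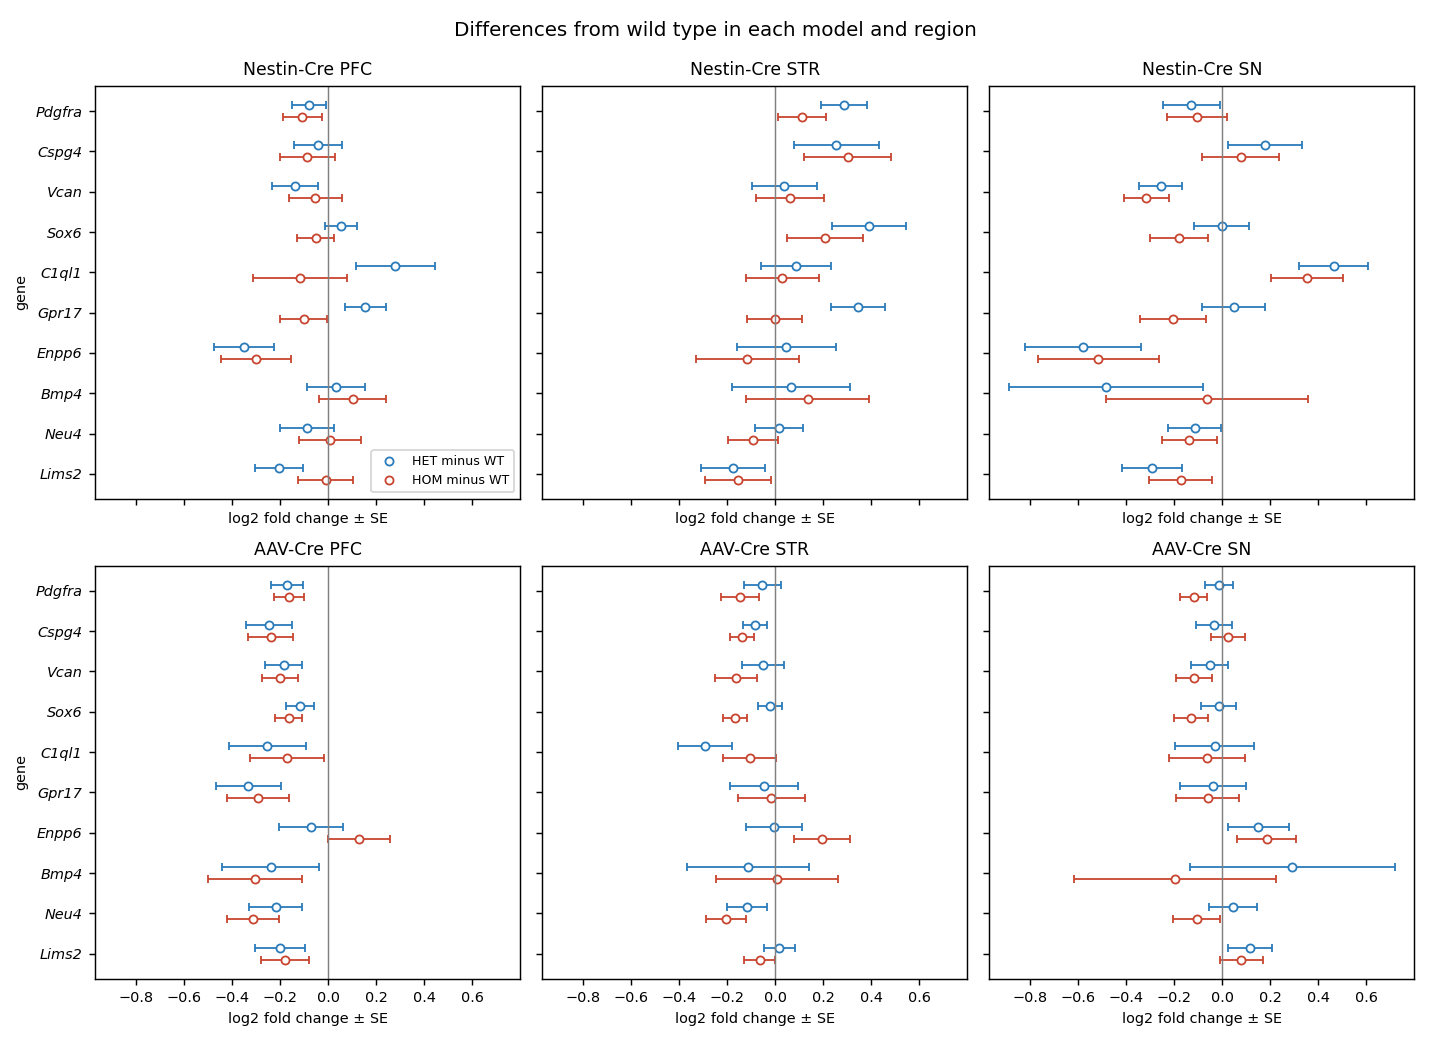
Log2 fold change (points) with its standard error (whiskers) of HET and HOM against WT mice in each model and region; none of the 120 points had an adjusted p under 0.1 in edgeR. In AAV-Cre PFC all but Enpp6 in HOM mice lie below 0, and in Nestin-Cre SN C1ql1 lies above and Enpp6 and Vcan below 0.

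Whether a genotype effect differed between the models was tested in each region. Again 0 of 10 genes were called by edgeR in any of the 6 tests, with 2, 1, 4, 3, 3 and 1 genes at an unadjusted p under 0.05 for PFC HET, PFC HOM, STR HET, STR HOM, SN HET and SN HOM. Of all genes, 14.8%, 16.6%, 15.5%, 6.67%, 14.0% and 3.32% had such a p. The counts of the 10 genes moved when libraries were left out. STR HOM had 0 without the mouse of N_STR_HOM_4575 (5.06% of all genes). PFC HOM had 3 without N_PFC_HOM_4569 (13.8%) and 0 without N_PFC_HOM_4568 (12.3%). SN HOM had 2 without N_SN_WT_4394 (5.54%) or A_SN_WT_3578 (3.34%). Without the 5 Nestin-Cre SN libraries low in microglia and astrocyte markers, SN HET had 1 (11.2%) and SN HOM 0 (2.55%). The likelihood ratio test called 1 gene each in PFC HET, STR HET, SN HET and SN HOM, and 0 in the others. Its share of all genes in these 6 tests is not given here, and in the genotype comparisons it called 4145 tests of all genes against 38. Over all genes the quasi-likelihood test called 0.678%, 3.54%, 0.00673% and 0.0202% in the first 4 of these 6 tests and 0% in both of SN. The values nearest to a call were those of Gpr17 in PFC HET (-0.48, adjusted p 0.192) and Pdgfra in STR HET (-0.34, adjusted p 0.232). Whether a genotype effect differed between PFC and STR was tested in each model, with 0 of 10 genes and 0% of all genes called in each of the 4 tests. These fits held no term for mouse, although regions of 1 mouse are not independent. With all libraries, the unadjusted p was under 0.05 for Pdgfra in Nestin-Cre HET mice (-0.37, adjusted p 0.792) and for no other of the 10. That count was 2 without the mouse of N_PFC_WT_4575 (5.05% of all genes) or without N_SN_WT_4394 (5.34%). Of all genes, 5.3% and 2.19% had such a p in Nestin-Cre HET and HOM mice, and 4.82% and 4.61% in those of AAV-Cre. With mouse as a block, the Pdgfra value of Nestin-Cre HET mice kept its sign and was still not called.

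Similarity of pattern was measured over all libraries after the mean of each of the 18 groups had been removed, as Pearson's r of log2 levels. Libraries share mice, since most animals gave all 3 regions, and r is given as a description. Among 14352 genes, those most like Pdgfra were Aldh6a1 (0.694), Dbt (0.689), Kif5b (0.681), Itgb8 (0.667) and Add3 (0.664). Those most like Enpp6 were Ugt8a (0.793), Aspa (0.778), Mog (0.728), Ermn (0.726) and Il1rap (0.725), of which the first 4 are on the myelin list. Within the 10 genes the highest values were 0.465 for Pdgfra with Vcan, 0.448 for Pdgfra with Sox6, 0.425 for Vcan with Sox6 and 0.419 for Neu4 with Lims2, and the lowest was -0.316 for Enpp6 with Cspg4.

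The reference table of promoters held 7 of the 10 genes in 12 entries, and Gpr17, Lims2 and C1ql1 were not among them. The 250 bases before the start of the transcript were searched on both strands for CAGCTG and CAGATG, words of the E-box type bound by Olig and related factors, and for ACAAAG and ACAATG, words bound by Sox proteins. Of 32851 promoters of this length, 13% held CAGCTG, 14.4% CAGATG, 16.5% ACAAAG and 10.7% ACAATG. Among the 7 genes, CAGCTG was found at Sox6, CAGATG at Pdgfra and Sox6, ACAAAG at Sox6 and ACAATG at Enpp6 and Sox6, which has 6 of the 12 entries. Promoters of 3 of the 7 genes are shown because their levels parted in the comparisons above. Enpp6 rose from PFC over STR to SN in both models, Pdgfra was highest in SN by smaller differences, and Cspg4 was not called higher in SN in either model. They are from RefSeq, build GRCm38.p6, at chr8:46986637-46986886, chr5:75152001-75152250 and chr9:56864854-56865103, all on the plus strand. Capitals mark ACAATG in Enpp6 and CATCTG, the reverse complement of CAGATG, in Pdgfra, and Cspg4 held none of the words. A match is a match of letters alone.
Enpp6: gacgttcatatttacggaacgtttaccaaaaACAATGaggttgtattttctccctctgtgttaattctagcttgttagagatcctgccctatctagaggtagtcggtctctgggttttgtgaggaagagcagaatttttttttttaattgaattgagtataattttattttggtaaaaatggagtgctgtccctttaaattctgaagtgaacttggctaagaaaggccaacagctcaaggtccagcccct
Pdgfra: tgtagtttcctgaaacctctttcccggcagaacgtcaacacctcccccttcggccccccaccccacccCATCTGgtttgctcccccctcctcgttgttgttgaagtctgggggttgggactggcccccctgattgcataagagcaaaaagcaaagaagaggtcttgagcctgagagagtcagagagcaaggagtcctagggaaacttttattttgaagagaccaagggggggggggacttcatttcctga
Cspg4: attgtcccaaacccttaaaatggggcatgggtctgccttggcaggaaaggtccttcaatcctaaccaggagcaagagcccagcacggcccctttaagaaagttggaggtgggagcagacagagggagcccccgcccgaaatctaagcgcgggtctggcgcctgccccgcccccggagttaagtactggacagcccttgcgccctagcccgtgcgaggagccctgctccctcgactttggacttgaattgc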

How the data were processed

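The deposited raw counts per gene were made by the authors from stranded mRNA libraries with bcl2fastq 2.20.0.422, STAR 2.5.2b and featureCounts 1.5.1, and the deposited Length column gives exon bases per gene. Each fit kept the genes that reached 1 cpm in 3 or more of its libraries. Fits used TMM, trended dispersion and the two-sided quasi-likelihood F test of edgeR 4.0.16 in R 4.3.3, with Benjamini-Hochberg adjustment over all genes. A gene was called at an adjusted p under 0.1. Genotype fits held the 3 genotypes of 1 model and region, region fits the WT mice of 1 model, and model fits all groups of 1 region. Alternatives were DESeq2 1.42.0, its size factors, the likelihood ratio test, no filter, mouse as a block, an adjusted p under 0.05, other sets of groups and libraries left out. Members and lists were chosen with earlier results of these data known. Named list genes are the up to 4 called genes per list and comparison with the largest absolute log2 fold change at a mean of at least 1 cpm. Genes of like pattern are the 5 with the highest r to Pdgfra and to Enpp6, on log2 of cpm plus 0.5, among those at a mean of at least 1 cpm. The most abundant gene of 1 marker list is not reported here.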

Additional observations from a re-analysis of the deposited data

Results flagged for a closer look

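In a group of 4 to 10 libraries, the highest or lowest library was singled out when its gap to the next, as a share of the whole range, passed the 95% critical value of Dixon. Of 198 pairs of a gene and a group, 15 met this rule, and chance flags about 1 in 20 groups. All values are in cpm. Gpr17 stood apart and high in A_STR_HOM_3570 (89.0) and A_SN_HOM_3570 (96.9), and Cspg4 in A_PFC_HOM_3570 (39.2), all of 1 mouse. Bmp4 was high in N_STR_HET_4566 (4.98), A_PFC_HET_3652 (5.49), A_STR_HET_3610 (2.90) and A_SN_WT_3578 (6.29). The choroid plexus markers summed highest of their groups in N_STR_HET_4566 (18710) and A_STR_HET_3610 (6776), but to 6.41 in A_PFC_HET_3652 and 20.2 in A_SN_WT_3578. Their part in the Bmp4 values was not tested. Enpp6 was high in N_STR_HOM_4568 (34.2), Neu4 in A_SN_HET_3610 (27.8) and Vcan in N_PFC_HOM_4580 (40.2). C1ql1 was low in N_SN_WT_4612 (15.8) and Vcan in A_PFC_WT_3578 (28.0). Gdnf was high in N_PFC_HOM_4580 (0.649), N_SN_HET_4566 (1.57) and A_SN_WT_3587 (1.01).

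The difference between the models in WT mice was itself called different between regions, by a test of that difference in edgeR, in 14 cases. On the log2 scale, SN minus STR gave -1.28 for Enpp6, -0.62 for Lims2, -0.38 for Vcan, -0.31 for Neu4, -0.26 for Pdgfra and 0.50 for C1ql1. SN minus PFC gave -1.37 for Bmp4, -0.72 for Enpp6, -0.72 for Lims2 and 0.49 for C1ql1. STR minus PFC gave 0.56 for Enpp6, 0.44 for Sox6, 0.41 for Vcan and 0.32 for Cspg4. With mouse as a block, 12 of the 14 were still called, and Neu4 for SN minus STR and C1ql1 for SN minus PFC were not. These tests were added after the data had been seen.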

How the results depend on the processing

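Of the 45 region calls, 45 were kept by DESeq2, by the likelihood ratio test, with the size factors of DESeq2 and without a filter, 44 with all 9 groups of a model in 1 fit, 42 with mouse as a replicate block, and 41 at an adjusted p under 0.05. Of the 19 calls between models in WT mice, 19 were kept by DESeq2, with its size factors, without a filter and in WT mice alone, 18 averaged over genotypes, 18 at 0.05 and 17 by the likelihood ratio test. Of the 38 calls in the comparisons between models that were added after seeing the data (HET, HOM, and by region), 38 were kept by DESeq2 and with its size factors, 33 by the likelihood ratio test, 32 without a filter and 26 at 0.05, and of the 14 by region among them 12 with mouse as a block.

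No genotype comparison had a call among the 10 genes in the quasi-likelihood test of edgeR. DESeq2 called 1 in Nestin-Cre STR HET. The likelihood ratio test called 2 there, 1 each in Nestin-Cre SN HET, Nestin-Cre SN HOM, AAV-Cre PFC HET and AAV-Cre PFC HOM, and 1 each for the genotype effect between models in PFC HET, STR HET, SN HET and SN HOM. In the genotype comparisons it called 4145 tests of all genes, against 38 by the quasi-likelihood test. Without A_PFC_HOM_3570, AAV-Cre PFC HOM had 1. At an adjusted p under 0.05 the calls between models went from 4 to 2 in STR HET and in STR HOM, and the calls by region from 6 to 3 for SN minus STR and from 4 to 2 for STR minus PFC. The latter count was also 2 without a filter, and 2 without A_STR_WT_3585 and A_STR_WT_3588. Bmp4 in Nestin-Cre WT SN minus PFC went from 0.65 to -0.27 (adjusted p 0.0841) without N_SN_WT_4329 and N_SN_WT_4394, and the cause was not tested, here or in the other cases. With each Nestin-Cre PFC WT or HOM library left out in turn, the genotype calls in that region ran from 0 to 0. With each such HOM library left out, the calls between models in HOM mice ran from 2 to 2. Without the mouse of N_PFC_WT_4575, the 19 calls between models in WT mice were all kept, and 35 of the 38 added ones.

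Leaving out the mouse of A_PFC_HOM_3570, the libraries N_SN_WT_4329, N_SN_WT_4394, A_SN_WT_3578, A_STR_WT_3585 and A_STR_WT_3588, the 5 Nestin-Cre SN libraries low in microglia and astrocyte markers, and each Nestin-Cre PFC HOM library in comparisons between models, was chosen after seeing the data. Without the TMM factor, mean levels were 0.941 to 1.086 times those given, and 2 of 180 moved by over 1 SD. Group medians of the raw count per library ran from 26 to 102.5 for Bmp4, and from 2 to 14 for Gdnf in PFC and SN, where small differences could not be detected.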
